A study of Homo sapiens with 11 samples.

Results

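The CTCF summits called in cells without ORC2 were set against those called after ORC2 had been put back. A summit is the single base at which a called peak is highest. The deletion list held 31112 summits and the rescue list 20810, together 51922 of the 70966 CTCF summits of the series, and every one was placed in a class. A summit with a summit of the other list within 500 bp is called matched. Deletion-only and rescue-only summits had none within that distance.

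Both cell types derive from HCT116 p53-/-, a line of human colorectal carcinoma without the tumour suppressor p53. The ORC2 deletion cells were 1 CRISPR/Cas9 clone of that line, labelled ORC2B2. The rescue cells had received ORC2, with its untranslated regions, on the plasmid pLHCXORC2 and had also been selected as a clone, so clone and genotype cannot be told apart. CUT&RUN, in which an antibody guides a nuclease that cuts out the DNA around a bound protein, was run with a CTCF antibody on 2 libraries per genotype. IgG, an antibody without a target here, gave the background, from 2 deletion libraries and 1 rescue library. The deposited files give 1 list per genotype that names no replicate, so no difference below has a replicate check or a p-value. Intervals are 95% intervals and cover counting error only. How deeply the libraries were sequenced is unknown. The value of a summit is its −log10 q from peak calling, given by the authors. It was used to rank summits within a list, with rank 1 the highest. The exception is a check of the processing, in which the same minimum value was set for both lists. Where values of both lists are printed for a site, they describe its place in each list and are not compared as levels.

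CTCF is a zinc finger protein that binds a long, directional DNA motif and halts cohesin as it extrudes chromatin loops, so that pairs of CTCF sites bound loops and domains. It also binds near many gene starts. ORC2 is a subunit of the origin recognition complex, which marks replication origins and helps to load the MCM helicase before S phase.

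Some of the promoters under these summits hold the core of the CTCF motif, and 8 of them are shown because they carry one example set per class. The core was searched as CCNNNAGAGGGC, CCNNNAGATGGC, CCNNNAGGGGGC and CCNNNAGGTGGC on both strands of the RefSeq promoter windows (GRCh38.p14), which run from 250 bases before to 50 bases after a gene start. The 4 forms cannot overlap at one position, because they differ in their fixed letters. Capitals mark the core, and each sequence is written 5′ to 3′ on the strand that carries it. The first pair lies under matched summits, the next 3 under deletion-only summits and the last 3 under rescue-only summits.
TNK2: tcccgaCCGGCAGAGGGCagtagc
DTWD2: gactccCCGGCAGGGGGCgccgca
MED4: gccggcCCAACAGATGGCgccggt
AGFG1: tcctggCCAGCAGAGGGCgccagc
ENDOG: ccacgaCCAGCAGGGGGCctgcga
CPNE4: cagcaaCCCCCAGGGGGCgctcgc
ZNF268: gggccaCCGGGAGGGGGCgtgcta
CHCHD5: atttagCCAGAAGAGGGCggaagt

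The core at TNK2, a non-receptor tyrosine kinase gene, lies at chr3:195894774-195894797 on the minus strand, and its summits stood at rank 138 of the deletion list and 145 of the rescue list, 11 bp apart. At DTWD2 it lies at chr5:118988215-118988238 on the plus strand, with ranks of 153 and 118 and summits 2 bp apart. The cores under deletion-only summits lie at chr13:48095232-48095255 (minus) by MED4, a Mediator subunit, at chr2:227472070-227472093 (plus) by AGFG1, and at chr9:128818372-128818395 (plus) by ENDOG, a mitochondrial endonuclease. Their summits ranked 5915, 7448 and 7883. The nearest rescue summits were 31674, 65507 and 33791 bp away. Those under rescue-only summits lie at chr3:132035066-132035089 (minus) by CPNE4, at chr12:133181371-133181394 (minus) by ZNF268 and at chr2:112584419-112584442 (plus) by CHCHD5. Their summits ranked 12653, 16346 and 17306, and the nearest deletion summits were 3205, 217275 and 1998 bp away. The 8 cores thus run from pairs of almost identical position high in both lists to sites called in 1 list and low in it. The core did not always sit under the summit: its centre was 7.5 bp from it at ENDOG and 175.5 bp from it at AGFG1.

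The lists differed mostly in one direction. Of the 31112 deletion summits, 18644 (59.9%, 59.4 to 60.5) had a rescue summit within 500 bp, which left 12468 deletion-only summits, 40.1% of that list. Of the 20810 rescue summits, 18638 (89.6%, 89.1 to 90.0) had a deletion summit, which left 2172 rescue-only summits, 10.4% of that list. Deletion-only summits were thus 5.74 times as many as rescue-only ones, in a list 1.495 times as long. These shares carry the difference in length, since the chance of a partner grows with the other list.

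**Figure D1:**
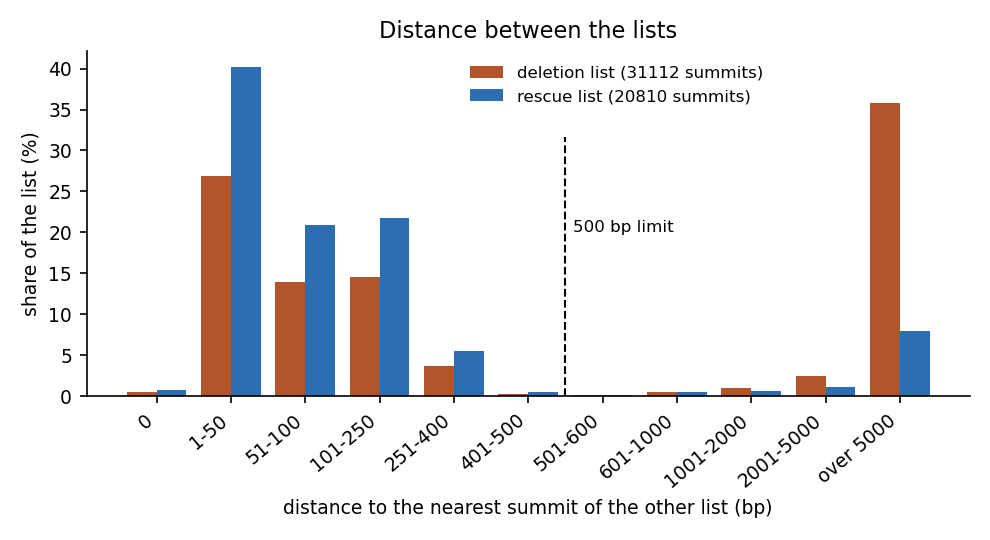
Distance from each summit to the nearest summit of the other list (x axis, bands in bp) as a share of its own list (y axis, percent), for the deletion list and the rescue list. Both lists have most of their near neighbours within 250 bp and few between 401 and 1000 bp, and the deletion list has the larger share beyond 5000 bp.

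The distance limit fell in a sparse stretch, as the plot of distances shows. Between 401 and 500 bp from a rescue summit lay 106 deletion summits, and between 501 and 600 bp lay 53. For rescue summits these bands held 99 and 46. The share matched rose from 27.4% of deletion and 41.0% of rescue summits within 50 bp to 55.9% and 83.6% within 250 bp. Beyond 500 bp it changed little, reaching 64.2% and 92.1% within 5000 bp. Just inside the limit were a pair by ATP6V1E2, a subunit of the vacuolar proton pump, 500 bp apart (ranks 26026 in deletion and 15926 in rescue), and one by PTPN22, a lymphoid tyrosine phosphatase, 499 bp apart (6239 and 15617). Just outside it was a pair by RAD23B, a DNA repair factor, 509 bp apart, with ranks of 14595 and 6161.

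Matched summits mostly lay close together. The lists formed 18616 one-to-one pairs, with a median distance of 58 bp (quartiles 24 and 123), and 164 pairs shared the same base. The rescue summit had the higher coordinate in 49.7% of pairs, and the median signed shift was 0 bp. Distance grew towards the weak end of each list. With each list split by rank into 10 classes of equal size, the median was 35 bp in the highest deletion class and 114 bp in the lowest, and in the rescue list it went from 34 to 105 bp.

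Whether a summit was matched went with its rank. In the same 10 classes, 98.2% of the highest deletion class had a rescue summit, 69.1% of the fifth and 14.1% of the lowest. For rescue summits the shares were 99.4%, 95.1% and 62.7%. The deletion shares fell at each of the 9 steps, and so did the rescue shares. Among the 1000 highest deletion summits 997 had a rescue summit somewhere in the whole rescue list, and among the 1000 highest rescue summits 995 had a deletion summit. Of the 10000 highest, 92.1% in deletion and 98.0% in rescue did.

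**Figure D2:**
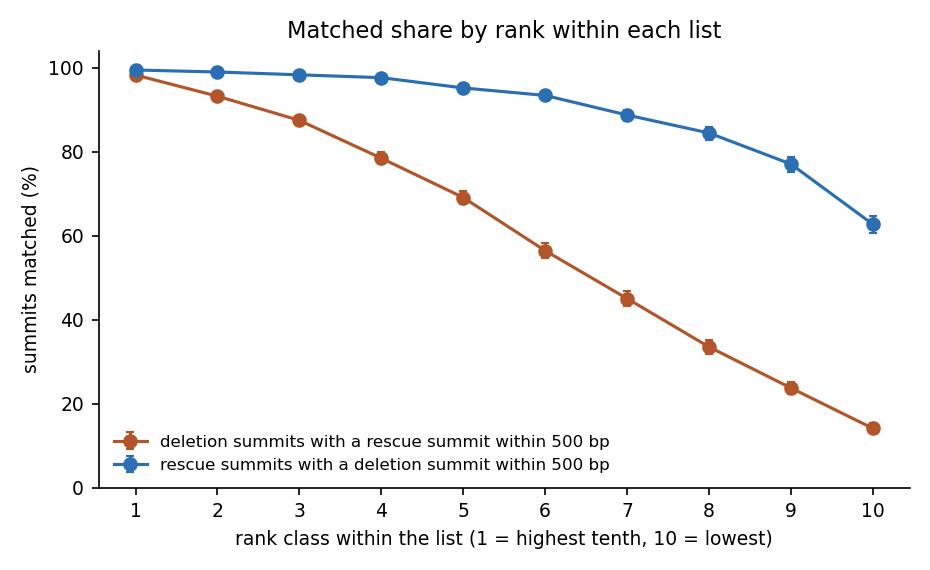
Share of summits with a summit of the other list within 500 bp (y axis, percent, with 95% Wilson intervals) in 10 rank classes of each list (x axis, 1 the highest). Both curves fall towards the weak end, the deletion curve from 98.2% to 14.1% and the rescue curve from 99.4% to 62.7%.

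Unmatched summits therefore crowded the weak end. The median rank of deletion-only summits was 23162.5 of 31112, and 81.6% (80.9 to 82.3) ranked below the middle of the list, against 28.9% of matched deletion summits. Rescue-only summits had a median rank of 17559 of 20810, with 89.8% (88.5 to 91.0) below the middle, against 45.4% of matched rescue summits.

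Both lists were then limited to their 20810 highest summits. Matching is nearly one to one, so lists of equal length must have nearly equal shares, and the size of the share is what this comparison gives. At equal lengths 76.9% of deletion summits (76.3 to 77.5) and 77.0% of rescue summits (76.4 to 77.5) were matched. Deletion-only summits then numbered 4809 (23.1% of the list) and rescue-only summits 4794 (23.0%). Of these 4794 rescue-only summits, 2622 (54.7%) had a deletion partner further down the whole deletion list. Unmatched summits still sat low, with 82.3% of the deletion-only and 86.8% of the rescue-only ones below the middle of their lists. Shorter equal lists overlapped less: 65.5% for the 1000 highest of each, 64.2% for the 5000 highest and 70.0% for the 10000 highest.

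Ranks of paired sites went together in part. Over 15998 one-to-one pairs at equal lengths Spearman's rho of the ranks was 0.63. It is a description across sites that share libraries and depth. Among the 655 pairs in the first 1000 of both lists rho was 0.72. The median absolute rank difference was 2954, and 3583 pairs (22.4%) lay within 1000 ranks of each other. More than 10000 ranks apart were 981 pairs, of which 445 ranked higher in deletion and 536 in rescue.

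The top of both lists was largely shared, with 15 pairs in the first 20 of both and 76 in the first 100. The highest pair with a gene lay inside PDZD7, a scaffold gene of the hair cell's stereocilia, at rank 3 in deletion and 4 in rescue, 37 bp apart. FGD2, an exchange factor for the GTPase CDC42, followed with ranks of 4 and 7. USP10, a deubiquitinase, had ranks of 7 and 9. The pair inside CACNB4, a calcium channel subunit gene, stood at rank 11 in both lists, 6 bp apart. Next to GABRR3, a GABA receptor subunit gene, a pair had ranks of 8 and 10, and inside SCOC the ranks were 10 and 17. By TRIM44, DNASE1L3, a DNA-degrading enzyme of plasma, TMEM87B and inside MCOLN2, an endolysosomal cation channel, deletion ranks were 14, 16, 9 and 17. Their rescue ranks were 12, 13, 21 and 19. All 10 pairs by this rule thus stood within the first 21 of both lists.

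**Figure D3:**
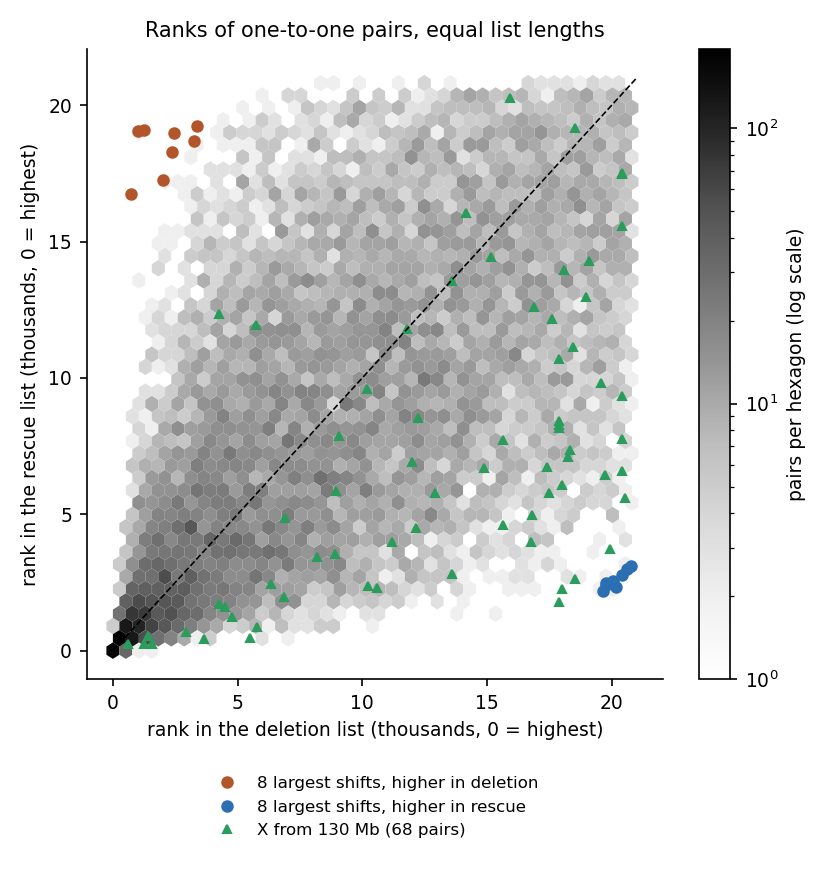
Rank of each of 15998 one-to-one pairs in the deletion list (x axis) and in the rescue list (y axis) at equal list lengths, in units of 1000 with 0 the highest. Grey hexagons count pairs on a log scale, coloured circles are the 8 largest shifts in each direction, and triangles are the 68 pairs on X from 130 Mb, most of which lie below the dashed line of equal rank.

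Some matched sites stood at opposite ends of the lists at equal lengths. Of the 8 largest shifts towards deletion, the first was inside CRELD1, a gene for a cysteine-rich membrane protein, at rank 1018 in deletion (−log10 q 32.2) and 19047 in rescue (2.70). SLC9A8, a sodium/proton exchanger, had ranks of 1261 and 19092. FLNC, encoding filamin C, an actin crosslinker of muscle, had 2377 and 18282. The pair 2373 bp from MX2, an interferon-induced GTPase, had 3355 and 19234. MEDAG, RNF19A, a ubiquitin ligase, TENT4A, a noncanonical poly(A) polymerase, and QPCT, a glutaminyl cyclase, completed this set, with deletion ranks from 739 to 3239 and rescue ranks from 16744 to 18965. These sites counted as matched although the rescue list held them near its end.

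In the other direction, a pair 1000 bp from FGF18, a fibroblast growth factor, stood at rank 20174 in deletion (−log10 q 5.92) and 2331 in rescue (15.5). The pair 4881 bp from MET, the hepatocyte growth factor receptor, had ranks of 20430 and 2791. PDE1C, a cyclic nucleotide phosphodiesterase, had 20038 and 2549, and AANAT, an enzyme of melatonin synthesis, had 19752 and 2406. The others were by SUPT20HL1 and TMEM235 and inside ITFG2 and FHAD1, with deletion ranks from 19644 to 20773 and rescue ranks from 2186 to 3109. The largest rank difference, rescue minus deletion, was 18029 on the deletion side and -17843 on the rescue side. Both lists were cut at rank 20810 here, which caps shifts alike in both directions. The like size of the largest shifts is therefore no result about the sites. The whole deletion list ran to rank 31112, so deletion ranks from 19644 to 20773 were near the end of the shortened list only.

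The highest deletion-only summits began at rank 550. That one lay 488 bp outside SLC8A2, a sodium/calcium exchanger gene, with a rescue summit 604 bp away. Next came a summit 112 bp outside EEF1A1, a translation elongation factor gene, at rank 860, whose nearest rescue summit was 7915 bp away. ZNF705G followed at rank 942 with no rescue summit within 319776 bp. Summits inside CNIH3, which assists AMPA receptors, TCHP, a keratin-binding protein, IRF4, a lymphoid transcription factor, and PLXNA2, a semaphorin receptor, ranked 1049, 1253, 1436 and 1595. The nearest rescue summit was 239815 bp from the one in IRF4 and 23982 bp from the one in PLXNA2.

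Further down the first 20 were transcription factor genes, a set of enzymes and adhesion and signalling genes. KLF11 ranked 1715, MESP1, a factor of early mesoderm, 1772 and EBF3, a developmental factor, 2137. Among enzymes were SULT6B1, a sulfotransferase (1939), CYP11A1, which cleaves the side chain of cholesterol (1948), and MGST2, a glutathione transferase (2032). NDUFAB1, the mitochondrial acyl carrier protein (1946), and NECTIN2, an adhesion receptor (1914), had rescue summits 592 and 655 bp away, just past the limit. ARHGAP15, a GTPase-activating protein, PPP1R12B, a myosin phosphatase subunit, DRC3, a ciliary protein, and CLECL1 ranked 1885, 1912, 1741 and 2039. LOC100996696, at 1283, completes the list. Of these 20 summits 11 lay inside their gene and 7 within 1 kb of a gene start or end. A rescue summit within 1 kb stood beside 4 of them, an IgG summit of the deletion cells beside 0, and 13 had a WT summit within 500 bp. WT are the parent cells with ORC2 intact. Most of these 20 sites, strong in deletion and missing from the rescue list, were therefore called in WT.

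Several of the strongest rescue-only summits lay close to deletion summits. Among the first 1000 rescue summits 5 were unmatched, at ranks 137, 345, 358, 372 and 631, and their nearest deletion summits were 607 to 2752 bp away. Those at 137, 345 and 372 had no protein-coding gene within 50 kb and lay 2753, 3 and 1198 bp from a rescue IgG summit, that is, from signal without the CTCF antibody. The one at 358 lay inside ORC2, 584 bp from an IgG summit. Whether IgG signal has a part in these 4 was not tested. The fifth lay 7665 bp from CYP11A1, where the deletion-only summit named above stood 755 bp from it. At this locus both lists thus had a high summit, and the WT list had 1 within 81 bp of the deletion summit and 1 within 2 bp of the rescue summit.

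The other named rescue-only summits ranked from 1296 to 3735. PHACTR3, a regulator of phosphatase 1 and actin, came first with its nearest deletion summit 11034 bp away. CDC37, a co-chaperone of HSP90, ranked 1348, 258 bp from the gene and 521 bp from a deletion summit. PARD3, a cell polarity scaffold, ranked 1363, with a deletion summit 1175 bp away. Summits in CLIC6, ACER3, an alkaline ceramidase, and RFX2, a ciliary transcription factor, ranked 1547, 1590 and 1865. CHMP6, an ESCRT-III subunit, TYW3, a tRNA-modifying enzyme, and HOXC9, a homeobox factor of the posterior body axis, followed at 1954, 2166 and 2308. Below them were ISG20L2, CYP27C1, a retinoid desaturase, PTPN20, INTS6L, LBX1, a homeobox factor, SLURP1, STAC3, a muscle excitation protein, LIMCH1 and SMIM28. Of the 20 rescue-only summits 11 lay inside their gene, 12 had a WT summit within 500 bp and 11 had a deletion summit within 1 kb, against 4 of the 20 deletion-only ones. ZNF705G and PTPN20 are among the genes named for unmatched summits that lie in duplicated sequence, where short reads can be placed at more than one copy.

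Larger sets were compared at both list lengths. Of the first 100 rescue-only summits, 25 lay within 1 kb of a deletion summit (25%, 17.5 to 34.3), and of the first 100 deletion-only ones 10 did of a rescue summit (10%, 5.52 to 17.4). Over all of them the shares were 7.18% (6.17 to 8.35) and 1.84% (1.62 to 2.09). The other list was the longer one for rescue-only summits. At equal lengths 17 of the first 100 rescue-only (10.9 to 25.5) and 10 of the first 100 deletion-only summits lay so near, and over all of them 3.53% (3.04 to 4.09) and 2.02% (1.66 to 2.45). The median distance to the other list was 18169.5 bp for rescue-only and 29351.5 bp for deletion-only summits in the full lists. At equal lengths the medians were closer, 27934 and 29277 bp. The rescue-only class was then another set, since 2622 of its 4794 summits had a partner in the whole deletion list. Most unmatched summits were far from the other list: 77.4% of deletion-only and 64.5% of rescue-only summits lay over 10 kb from it.

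ORC2 itself, the targeted gene (chr2:200908977-200963660, hg38 like all coordinates here), held 4 summits in each list. Matched pairs stood at 200944924 and 200944929 (ranks 21554 in deletion and 15199 in rescue), at 200957984 and 200957858 (2215 and 1540), and at 200963310 and 200963522 (4093 and 3768). The fourth summits, at 200956378 in deletion (rank 5399) and 200957000 in rescue (rank 358), lay 622 bp apart and so fell into the unmatched classes. They were 13 and 584 bp from an IgG summit of the same genotype, and both IgG lists had 2 summits in the gene. The matched summits at 200957984 and 200957858 also lay near an IgG summit of their genotype, 231 and 281 bp away. In deletion-only summits as a whole, 4 of 12468 lay within 1 kb of a deletion IgG summit, and 3 of 2172 rescue-only summits lay as near to a rescue IgG summit. Of matched summits 25 of 18644 in deletion and 17 of 18638 in rescue did, so summits near IgG were found in every class. The IgG lists held only 34 summits in deletion and 33 in rescue, so few summits of any class could lie near one. Whether IgG signal has a part in unmatched summits was not tested. The summit lists do not show which ORC2 sequence was lost.

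Unmatched summits were spread over many genes. A protein-coding gene was found within 50 kb of 10374 deletion-only summits, which named 6967 genes, and 6312 of the summits were inside a gene. For rescue-only summits these numbers were 1804, 1643 and 1110. Protein-coding genes that held a summit of either list numbered 8208, of which 5745 held summits of both, 2123 of the deletion list alone and 340 of the rescue list alone. More deletion than rescue summits stood in 4204 genes, more rescue summits in 603 and equal numbers in 3401. These gene counts belong to the full lists and carry their difference in length, the deletion list being 1.495 times as long. No gene counts at equal lengths are given.

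The genes named next were taken after their counts were seen. ZFHX3, a homeobox transcription factor gene 1109 kb long, held 10 deletion-only summits, with 11 deletion and 2 rescue summits in all. GRK5, a kinase of G protein-coupled receptors, held 9, with 11 and 3. ARHGAP26, GLIS3, GPHN, the gene of the synaptic scaffold gephyrin, and GSE1 held 8 each, of 15, 15, 16 and 21 deletion summits in all. In the whole deletion list 40.1% of summits were deletion-only. These last genes are long, from 459 to 1227 kb, and GSE1 lay below that share. DPF3, a subunit of the BAF remodelling complex, and NDUFAF2, an assembly factor of respiratory complex I, had 6 deletion summits each and 0 in rescue. ANO1, a calcium-activated chloride channel, MAD1L1, a spindle checkpoint protein, and MAML3, a NOTCH coactivator, had 5 and 0. In the other direction CTNNA2, a neuronal catenin, and SLCO3A1, an organic anion transporter, held 4 rescue-only summits each. SLCO3A1 had 5 rescue summits and 1 deletion summit, and CTNNA2 had 6 and 3. Genes with 2 rescue summits and 0 deletion summits included CHL1, a neural adhesion molecule, SMAD5, a mediator of BMP signals, HCFC1 and TSPAN7.

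A deletion-only summit was slightly more often followed by another unmatched one than a matched summit was. After a deletion-only summit the next deletion summit was also unmatched in 41.9% of cases, against 38.8% after a matched one. For rescue these shares were 13.1% and 10.1%. Most runs of unmatched summits were single, 59.2% in deletion and 87.3% in rescue. Runs of 5 or more numbered 262 in deletion. The longest held 12 deletion-only summits over 1598 kb from ZNF407 to ZNF516 (chr18:74657634-76255188). One of 11 ran over 4226 kb past OLFM3, COL11A1, a fibrillar collagen gene, and PRMT6, an arginine methyltransferase gene (chr1:101567862-105793580). In rescue there were 4 runs of 5 or more. One of 6 lay by XYLT1 and NPIPA8 (chr16:17477030-17930567), and one of 6 and one of 5 lay on X.

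Unmatched summits were spaced more widely than matched ones. Spacing is the distance to the nearest other summit of the same list, on either side. Its median was 19735 bp for deletion-only summits, against 15660.5 bp for matched deletion summits. In the rescue list the medians were 29035 and 23243 bp. Spacing follows list length, and at equal lengths the deletion medians were 29208 and 22609 bp and the rescue medians 28775 and 22438 bp. The nearest other summit of the list lay within 10 kb for 30.7% of deletion-only and 36.5% of matched deletion summits. In rescue it did for 25% and 27.7%.

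Unmatched summits lay near gene starts somewhat more often than matched ones. Shares at gene starts by strand leave out chromosome 8, for which no promoter windows were at hand. Within 1 kb of a gene start, with strand known, were 14.0% of deletion-only and 10.2% of matched deletion summits, a difference of 3.79 percentage points (3.03 to 4.56). For rescue the shares were 13.5% and 10.2%, a difference of 3.33 points (1.86 to 4.93). At equal list lengths the differences were 1.55 points (0.54 to 2.62) in deletion and 2.26 points (1.22 to 3.35) in rescue. The use of gene starts by strand was chosen after seeing the data. In the full lists and within rank classes the differences were 2.51 points (1.60 to 3.43) and 3.36 points (1.72 to 5.00). In the deletion list the excess sat below the median rank, with 14.7% against 10.7%, while above it the shares were 10.5% (9.30 to 11.9) and 9.95% (9.44 to 10.5). Rescue-only and deletion-only summits did not differ detectably from each other in their share within 1 kb of either end of a gene, the difference being -0.28 points (-2.06 to 1.59). At either end of a gene the excess over matched summits was 2.76 points in deletion and 2.51 in rescue. At equal list lengths the deletion value was 1.38 points (0.145 to 2.64), and with matching within 100 bp the rescue value turned to -0.475 points (-1.53 to 0.60). Within 2 kb the rescue value was 1.82 points (-0.12 to 3.82), an interval that includes 0.

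Other positions differed less once rank was taken into account. Inside protein-coding genes lay 50.6% of deletion-only and 47.8% of matched deletion summits, a difference of 2.84 points that was 0.0027 points within rank classes (-1.39 to 1.39). For rescue it was 3.22 points and 0.20 points within rank classes (-2.18 to 2.59). Unmatched summits also more often had no protein-coding gene within 50 kb: 16.8% against 13.1% in deletion and 16.9% against 13.1% in rescue. Within rank classes these differences were 2.13 points (1.11 to 3.14) and 2.34 points (0.56 to 4.11). Outside all genes of any kind, and over 1 kb from their ends, the order was the other way: 29.1% of deletion-only against 32.4% of matched deletion summits, -1.36 points within rank classes (-2.64 to -0.0853). For rescue the shares were 30.5% and 32.4%, 0.433 points within rank classes (-1.77 to 2.64).

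**Figure D4:**
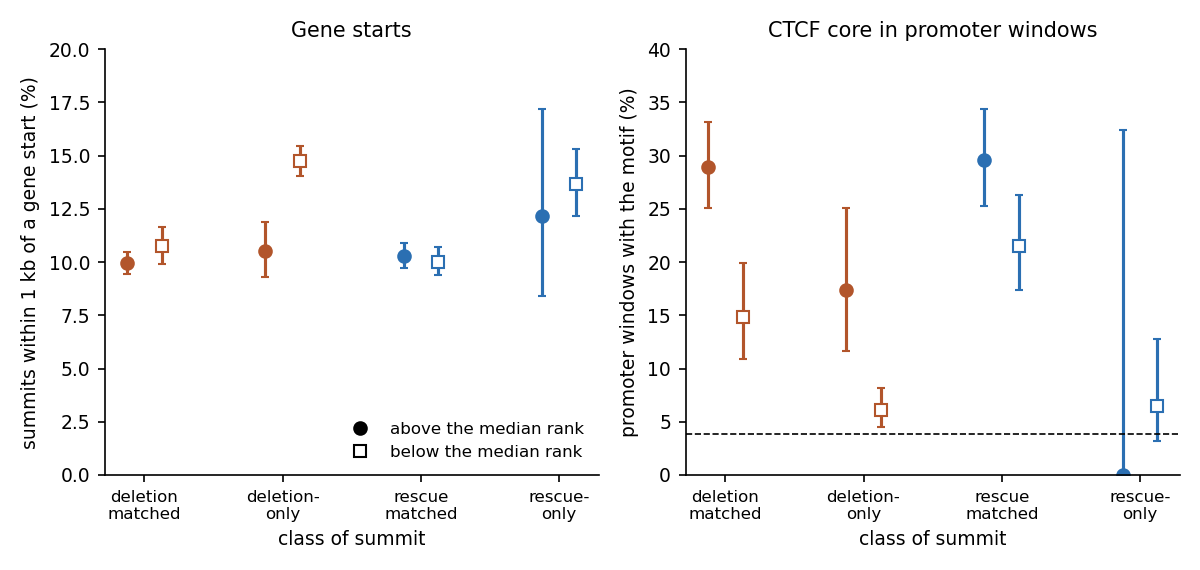
Left, share of summits within 1 kb of a gene start (y axis, percent); right, share of promoter windows under a summit that hold the CTCF core (y axis, percent, dashed line at 3.88% for all windows). The x axis gives the class of summit, filled circles summits above and open squares summits below the median rank of their list, with 95% Wilson intervals. Deletion-only summits below the median rank are highest on the left, and matched summits above it are highest on the right. The lowest point on the right stands for 0 of 8 windows.

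Promoters under unmatched summits held the CTCF core less often. Of all 34961 promoter windows, none of them on chromosome 8, 3.88% (3.68 to 4.09) held one of the 4 forms of the core printed above. Among windows with a matched deletion summit 176 of 723 did (24.3%, 21.4 to 27.6), and among those with a deletion-only summit 63 of 810 (7.78%, 6.13 to 9.83), a difference of -16.6 points (-20.2 to -12.9). For rescue the counts were 185 of 715 (25.9%) and 7 of 116 (6.03%, 2.95 to 11.9), a difference of -19.8 points (-24.4 to -13.2). Rank went along with this too. Above the median rank of the deletion list the shares were 29.0% and 17.4% (11.6 to 25.1), and below it 14.8% and 6.10% (4.54 to 8.14). The median GC content was 62.7% in windows with matched deletion summits, 63.0% in those with deletion-only summits and 58.7% in all windows. A match is a run of letters and not a measured site, and a window without one may hold another form of the motif.

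Chromosome X stood apart in its rescue-only summits. Of its 447 rescue summits 111 were rescue-only, 24.8% (21.1 to 29.0), where chromosomes 1 to 22 had shares from 7.09% on chromosome 14 to 12.8% (9.77 to 16.7) on chromosome 18. The deletion-only share on X, 45.1% of 610 summits, lay between the 35.9% of chromosome 17 and the 47.8% of chromosome 21. At equal list lengths the rescue-only share was 43.8% on X and at most 26.4% elsewhere, on chromosome 13. The deletion-only share was then also highest on X, 31.5%, against at most 28.3% elsewhere, on chromosome 4. On X the rescue-only share was higher in the distal part of the long arm. From 130 Mb to the end, a limit taken from the values, the deletion list had 122 summits and the rescue list 157, a ratio of rescue to deletion of 1.29. On X below 130 Mb the counts were 488 and 290, a ratio of 0.594, and on chromosomes 1 to 22 the ratio was 0.668. The rescue-only share was 36.9% (29.8 to 44.7) in the distal part, 18.3% (14.3 to 23.1) in the rest of X and 10.1% (9.71 to 10.5) on chromosomes 1 to 22. The deletion-only share was 18.9%, 51.6% and 40%.

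**Figure D5:**
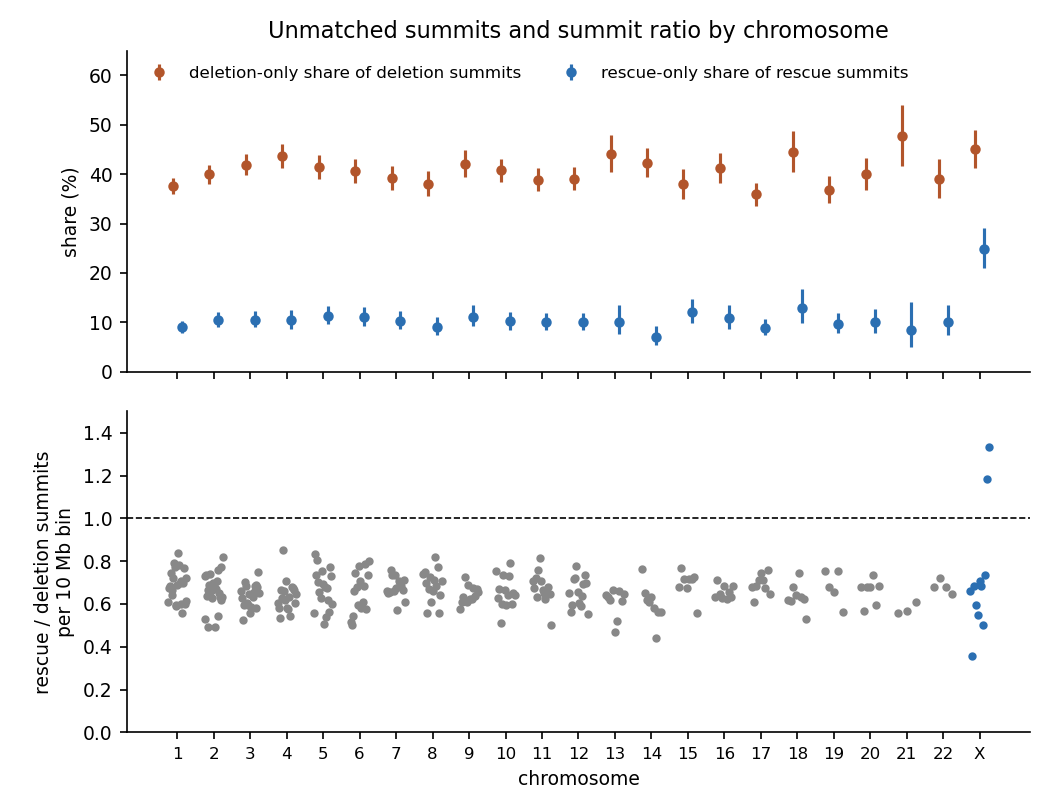
Top, share of unmatched summits per chromosome (y axis, percent, with 95% Wilson intervals; x axis, chromosome) for each list. Bottom, ratio of rescue to deletion summits in 10 Mb bins with at least 40 summits of both lists together (one point per bin, X in blue, dashed line at equal numbers). X has the highest rescue-only share, 24.8%, and 2 bins of X are the points above the dashed line.

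Of 286 bins of 10 Mb with at least 40 summits, 2 held more rescue than deletion summits, and both were distal X: 78 against 66 from 130 to 140 Mb, and 64 against 48 from 150 to 160 Mb. The bin between them, below the minimum, held 15 against 8. The median ratio was 0.662 (quartiles 0.609 and 0.708), and the third highest bin had 0.851. With lists of equal length, 118 of 277 bins held more rescue summits, so the count of 2 belongs to the full lists. At equal list lengths the distal part held 78 deletion and 157 rescue summits. Ranks moved with the counts. They come from the same lists, and the limit of the region was taken from the values, so they are no separate support. Of 68 one-to-one pairs there 63 ranked higher in rescue, with a median rank difference, rescue minus deletion, of -5223.5. On the rest of X 98 of 182 pairs did, with a median of -231.5, and on chromosomes 1 to 22 8106 of 15748 did (51.5%), with a median of -70. No copy number was measured, so the part of copy number in the distal X counts was not tested.

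The genes at distal X rescue-only summits were led by INTS6L, a relative of an Integrator subunit, at rank 3127 of the rescue list, with the nearest deletion summit 24320 bp away. HAUS7, a subunit of the augmin complex of the spindle, had one at rank 6095, 1009 bp from a deletion summit. Near HAPSTR2, SAGE1, CCDC160 and IDS, a lysosomal sulfatase, ranks were 5520, 6278, 8547 and 8659. MOSPD1 and HS6ST2, a heparan sulfate sulfotransferase, followed at 9271 and 10137. These genes were listed after the region had been chosen. The first of them, INTS6L, was also among the 20 named rescue-only summits.

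By gene group, unmatched shares ran on both sides of the value for all protein-coding genes. A summit counted for a gene that held it or was nearest within 50 kb. Over all such genes, 10374 of 26576 deletion summits were deletion-only (39.0%, at a median rank of 15236.5 for the deletion summits) and 1804 of 17995 rescue summits were rescue-only (10.0%, median rank 10177). The groups were small and their intervals wide, so each is given as a count, and the median rank is that of all its deletion summits. Group shares followed list length. At equal lengths 22.3% of the deletion and 22.3% of the rescue summits of all protein-coding genes were unmatched.

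Replication licensing and firing genes, to which ORC2 belongs, had 20 deletion-only of 34 deletion summits (58.8%, 42.2 to 73.6; median rank of the 34, 17406) and 2 rescue-only of 17, one of them the summit in ORC2 itself. At equal lengths 52.4% of 21 deletion summits (32.4 to 71.7) and 47.1% of 17 rescue summits (26.2 to 69.0) of this group were unmatched, so the lean towards deletion belongs to the full lists. MCM3, a subunit of the replicative helicase, led at rank 3305, 30 bp from a gene end and 21000 bp from the nearest rescue summit. POLA1, the catalytic subunit of the primase polymerase, and ORC4, another subunit of the complex, ranked 10213 and 13943. DNA damage response genes had 28 of 53 (52.8%, 39.7 to 65.6; median rank 18240) and 7 of 32. At equal lengths both of their shares were 31.2%. MSH6, a mismatch repair factor, stood at rank 8038, RPA1, a single-strand binding protein, at 13203, CHEK1, a checkpoint kinase, at 14525 and ATM, a kinase that senses breaks, at 15895. PMS2, a mismatch repair factor, had a rescue-only summit at 11071.

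Genes of chromatin and loop structure lay on both sides of the value of all genes. Cohesin, condensin and loop factors had 21 of 55 deletion-only (38.2%, median rank 17122) and 3 of 39 rescue-only. SMC3, a cohesin ATPase, was in both sets, with summits 559 bp apart at ranks 8577 in deletion and 7998 in rescue. PDS5B, a cohesin regulator, had a deletion-only summit at 15449. Polycomb, heterochromatin and DNA methylation genes had 24 of 78 (30.8%, median rank 14924.5) and 5 of 59, led by TET2, a methylcytosine dioxygenase, at 7784 and LMNB1, a nuclear lamin, at 8940. Imprinted genes had 19 of 43 (44.2%, median rank 21106) and 3 of 27, with PPP1R9A first in deletion (5785). HOX genes had 6 of 22 (27.3%, median rank 8760) and 5 of 22, with HOXB3 at 9337 and HOXD10 at 9371 in deletion and HOXC9 at 2308 in rescue. Clustered protocadherins, neuronal adhesion genes whose promoters CTCF binds, had 6 of 9 (median rank 10578) and 1 of 4, with PCDHB1 at 4638.

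Housekeeping and growth genes were mixed. Ribosomal protein genes had 19 of 64 deletion-only (29.7%, 19.9 to 41.8; median rank 9940.5) and 9 of 54 rescue-only, with RPL11 at rank 3024, 191 bp from the gene. Cell cycle genes had 19 of 48 (39.6%, median rank 13554) and 4 of 33, among them CDK6 (9484) and CDKN2C (10420). Genes of p53 signalling and apoptosis had 16 of 39 (41.0%, median rank 13188) and 2 of 25, with CDKN1A, the p21 inhibitor, at 5425. WNT pathway genes had 31 of 87 (35.6%, median rank 12261) and 7 of 63, with WNT7B at 8424 and the WNT inhibitor DKK1 at 11182.

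Among lineage genes, the markers of the intestinal epithelium from which the line comes had 19 of 48 deletion-only (39.6%, median rank 12537) and 5 of 34 rescue-only. EPCAM, an epithelial adhesion molecule, had one at rank 7182. CDH1, encoding E-cadherin, had summits 529 bp apart, at 8599 in deletion and 6204 in rescue, and so entered both sets. Neuronal genes had 57 of 128 (44.5%, median rank 15936) and 9 of 80, with CACNA1C, a calcium channel subunit, at 8051 and NRXN3, a presynaptic adhesion molecule, at 9026. Mesenchymal and blood genes had 16 of 44 (36.4%, median rank 16800) and 1 of 28. Developmental transcription factors had 46 of 115 (40%, median rank 14476) and 5 of 74, led by EBF3 in deletion and MSX1, a homeobox factor (7220), in rescue. Very long and fragile-site genes had 66 of 134 (49.3%, 40.9 to 57.6; median rank 19211) and 15 of 83 (18.1%, 11.3 to 27.7). At equal lengths their shares were 36% and 42.2%. EYS, a photoreceptor gene, and PDE4D, a cyclic AMP phosphodiesterase gene, ranked 3818 and 5361 in deletion.

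WT cells offer a reference that the matching did not use. A WT summit lay within 500 bp of 75.6% of the matched deletion summits and of 75.6% of the matched rescue summits. It did so for 2956 of 12468 deletion-only summits (23.7%) and for 433 of 2172 rescue-only summits (19.9%). Most unmatched summits of both kinds were thus absent from the WT list too, unlike the strongest ones named above. The WT list was the shortest, with 19044 summits. Unmatched summits also ranked low, 81.6% of deletion-only and 89.8% of rescue-only ones below the middle of their lists. These WT shares were not split by rank, so the contrast with matched summits was not separated from rank.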

How the data were processed

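CTCF CUT&RUN summits of ORC2 deletion and ORC2 rescue cells were compared, with 2 libraries behind each list. Per the submitters' processing notes FastQC 0.11.5, Bowtie2 2.2.9, SAMtools 1.12 and MACS2 were used with the build hg38. How peaks were called, whether duplicates were removed and whether IgG served as control is not given in the sources used here. In these files the deposited value of a summit is the −log10 q of the peak caller, and the lowest values, 1.307 and 1.304, lie just above the −log10 of 0.05. Each list was treated as 1 pooled sample.

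Summits were put on 1-based coordinates, matched within 500 bp, and ranked within their list. Equal lengths kept the 20810 highest of each list. Shares have 95% Wilson intervals and differences Newcombe intervals, or Mantel-Haenszel intervals over 10 rank classes. No significance test was run, because each genotype has 1 list. Genes and promoters came from RefSeq tables of the same assembly, with 19970 protein-coding genes and 34961 promoter windows. These windows cover 22 chromosomes, X among them, and none lies on chromosome 8. Gene-start shares and promoter motif shares therefore leave out chromosome 8.

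Named are the 20 highest unmatched summits per list with a protein-coding gene within 50 kb, the 10 highest pairs, the 8 largest rank shifts per direction, up to 4 genes per class for each of 16 gene lists, and 8 promoter windows. Some of these genes are left out of the text. The members and lists were chosen with earlier results of these data known. The matching code was run on simulated lists made from 28416 deletion summits, thinned to 1 per 5 kb. There 60.3% were made with a partner and 60.3% were found. Partners were placed inside the 500 bp limit, so this recovery was set by construction. It checks the code and not the matching of crowded summits. The software was matplotlib 3.10.9, SciPy 1.17.1, pandas 2.3.3, NumPy 2.4.6 and Python 3.11.15. Alternatives were other distances, −log10 q minimums, list lengths and gene windows.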

Additional observations from a re-analysis of the deposited data

How the results depend on the processing

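Matched shares followed the distance allowed and the list length. For deletion and rescue summits they were 41.3% and 61.8% at 100 bp, 55.9% and 83.6% at 250 bp, 60.7% and 90.3% at 1000 bp, 55.8% and 91.9% with −log10 q of at least 5 in both lists, 40.9% and 90.0% with at least 10, and 76.9% and 77.0% at equal lengths. With equal lists they were 65.5% for the 1000, 64.35% for the 2000 and 64.2% for the 5000 highest in both directions. They were 70.0% and 70.03% for the 10000 and 75.4% in both directions for the 15000 highest. At equal lengths both were 55.3% at 100 bp and 72.4% at 250 bp, and 77.8% of rescue summits were matched at 1000 bp.

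The excess of deletion-only summits at a gene start or end, 2.76 points, was 1.38 at equal lengths, 1.21 at 100 bp and 3.79 for gene starts by strand. That of rescue-only summits, 2.51 points, turned to -0.475 (-1.53 to 0.60) at 100 bp. Median spacing, to the nearest summit of the same list, was 29208 bp for deletion-only summits at equal lengths and 18692 bp at 100 bp. For rescue-only summits it was 26285 bp at 100 bp. The rescue-only share on X was 43.8% at equal lengths, 49.4% at 100 bp and 18.3% below 130 Mb. At equal lengths 118 bins held more rescue than deletion summits. In the lowest deletion class 15.8% were matched at 1000 bp. Another 23 values stayed within their interval or 1.5 times the count. Among them the excess of rescue-only summits within 2 kb of a gene start or end was 1.82 points, with an interval (-0.12 to 3.82) that includes 0, unlike that of the value reported (0.79 to 4.32). In addition, of 96 gene list values 47 moved beyond their interval and 49 did not. The causes of these changes were not tested, beyond what fewer summits or a narrower match bring by construction. Gene starts by strand, 100 bp for X and for the ranks of pairs, X below 130 Mb, and 1000 bp for the rank classes were chosen after seeing the data. No paired analysis was possible because the lists carry no replicate numbers. With 1 pooled list for each genotype, no library could be left out either.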
